A study of Mus musculus with 3 samples.

Results

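Binding of serum response factor (SRF) at circadian clock genes was examined in whole mouse cornea by chromatin immunoprecipitation and sequencing. The genes were the 10 core and output genes Per1, Per2, Per3, Cry1, Cry2, Nr1d1, Nr1d2, Clock, Bhlhe40 and Dbp, and every merged SRF region whose assigned genes held one of them was taken. These were 26 of 31850 regions, assigned to 9 of the 10 genes. No region listed Clock. The 26 regions were distinct, and 17 of them were also assigned to genes outside the 10.

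An SRF library came from Dstn-corn1 mutant mice, whose Dstn allele leaves them without working destrin, a protein that disassembles actin filaments, and another from wildtype mice. All were untreated mice of mixed background aged about 8 weeks, and the hour of collection and the number of animals are not given in the labels. An input library without antibody, with no genotype in its title, was not used here. The growth note names mutant mice for all 3 libraries, so genotype rests on the titles. At the mutated gene itself, Dstn, the 3 regions were listed at 0 in mutant and at 35, 11 and 13 in wildtype. With 1 library per genotype the differences have no replicate spread to be set against, and no tests were made.

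The circadian clock is a transcriptional feedback loop that runs in most cells of the body, the cornea included. CLOCK and its partner ARNTL activate the Per and Cry genes through DNA elements called E-boxes, and the PER and CRY proteins then repress that activation. The REV-ERB receptors, encoded by Nr1d1 and Nr1d2, close a further loop by repressing Arntl, and DBP carries the rhythm to output genes through D-boxes. SRF is a transcription factor that responds to serum and to the state of actin, and it binds a sequence known as the CArG box.

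Sequences of the gene starts were taken from RefSeq for GRCm38.p6, the build of the deposited coordinates (mm10). The table holds 300-base windows that run from 250 bases before a start site to 50 after it, and 11 windows matched 8 of the 10 genes, with none for Per2 and Bhlhe40. Both Per1 windows are shown because a merged SRF region lay over one and none over the other. The Per3 and Cry1 windows are shown because each holds a clock element inside a called SRF region. Capitals mark the E-box CACGTG and the D-boxes TTATGTAA and TTATGCAA, and in the second Per1 window an element of the type bound by MEF2, a relative of SRF in the MADS-box family. The MEF2 search was added after the sequence had been seen.
Per1, first window, chr11:69098699-69098998, plus strand: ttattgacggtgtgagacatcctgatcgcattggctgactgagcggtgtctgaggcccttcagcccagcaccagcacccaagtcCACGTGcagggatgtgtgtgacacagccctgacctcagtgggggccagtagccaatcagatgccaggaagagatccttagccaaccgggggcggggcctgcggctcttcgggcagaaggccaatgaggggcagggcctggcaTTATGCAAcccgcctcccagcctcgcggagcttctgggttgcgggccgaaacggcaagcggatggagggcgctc
Per1, second window, chr11:69099902-69100201, plus strand: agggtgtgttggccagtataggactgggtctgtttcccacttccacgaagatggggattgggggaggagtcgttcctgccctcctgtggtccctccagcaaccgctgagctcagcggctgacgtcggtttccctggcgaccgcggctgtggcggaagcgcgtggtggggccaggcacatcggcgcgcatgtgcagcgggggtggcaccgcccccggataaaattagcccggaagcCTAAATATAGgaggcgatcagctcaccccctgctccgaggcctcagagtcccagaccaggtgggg
Per3, chr4:151044616-151044915, minus strand: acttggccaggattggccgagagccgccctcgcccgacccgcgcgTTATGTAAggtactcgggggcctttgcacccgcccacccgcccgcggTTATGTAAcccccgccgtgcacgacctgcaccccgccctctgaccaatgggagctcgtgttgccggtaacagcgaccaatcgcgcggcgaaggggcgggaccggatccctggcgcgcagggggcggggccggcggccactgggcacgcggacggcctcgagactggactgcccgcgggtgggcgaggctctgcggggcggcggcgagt
Cry1, chr10:85185005-85185304, minus strand: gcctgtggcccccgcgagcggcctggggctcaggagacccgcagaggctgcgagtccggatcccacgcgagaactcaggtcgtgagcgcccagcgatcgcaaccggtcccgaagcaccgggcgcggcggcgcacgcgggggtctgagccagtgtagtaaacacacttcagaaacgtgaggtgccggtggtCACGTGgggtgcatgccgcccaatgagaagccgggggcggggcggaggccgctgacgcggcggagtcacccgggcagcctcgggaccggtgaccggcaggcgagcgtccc

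The CArG box, CC and GG around 6 bases that are A or T, was found in 0 of the 11 windows and in 1.63% of all 32851 windows. Of the 11 windows, 4 were overlapped by no region. Regions outside the windows were not searched, so the 0 does not describe the clock gene regions as a set. The E-box was found in the first Per1 window and in the Cry1 window, its first base at -166 and -60 from the start site, and in 7.15% of all windows. The D-box was found in the first Per1 window, at -24, and at 2 places in the Per3 window, and in 1.66% of all windows. The MEF2-type element was found in the second Per1 window, at -15, and in 0.557% of all windows. As that search was added after the sequence had been seen, this share does not tell how unusual the match is. Both strands were searched, no capitals overlap, and a match describes the letters only.

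The values below are peak heights as deposited, that is, the largest signal within each region. The sequencing depth behind them is unknown, since no read totals were used. At 95.4% of all regions the mutant height was the lower one, with a median log2 ratio of -1.10 (mutant over wildtype, 1 added to each height). The authors' scaling of the libraries is not stated in the labels. Common scaling, which gives both libraries 1 median height over the regions they share as called, raises that median by 1.01, so each ratio below is read against -1.10.

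Clock gene regions ranged from 7 to 40 in mutant, with a median of 15, and from 13 to 66 in wildtype, with a median of 25. Over all regions the medians were 13 in mutant and 28 in wildtype, so that clock gene regions lay near the middle of all regions. The highest region of each library was at a different gene, Bhlhe40 in mutant and Per1 in wildtype.

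**Figure D1:**
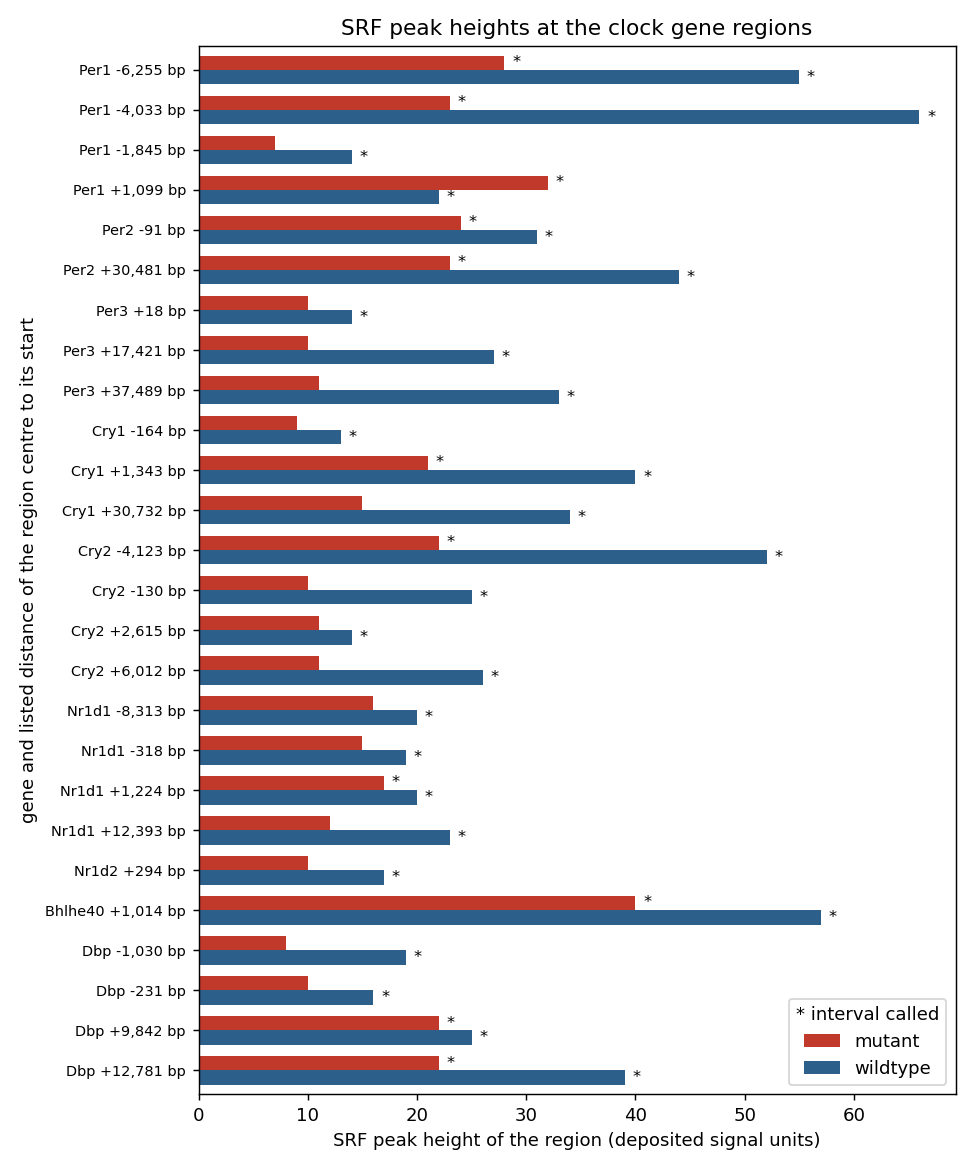
SRF peak heights (x axis, deposited signal units) of the 26 clock gene regions, with mutant in red above wildtype in blue, by gene and listed distance of the region centre to the gene start; an asterisk marks a called interval, and each bar is 1 library. The wildtype bar is the longer at every region except Per1 +1099 bp, where mutant reached 32 and wildtype 22.

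Per1 encodes a period repressor that is also induced quickly by serum and by light. It had 4 regions, all of them also assigned to the neighbouring gene Vamp2. In wildtype the 2 highest lay upstream. The region listed 6255 bp before the start (chr11:69092169-69093234) reached 28 in mutant and 55 in wildtype (log2 ratio -0.95). The region listed 4033 bp before the start (chr11:69094434-69095413) reached 23 in mutant and 66 in wildtype (log2 ratio -1.48). This height of 66 was the highest wildtype value of any clock gene region, and the ratio was below the median of all regions. The region at -1845 (chr11:69096826-69097396) was low in both, at 7 in mutant and 14 in wildtype, and was called in wildtype only.

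The fourth Per1 region, inside the gene and listed 1099 bp past its start (chr11:69099713-69100398), went the other way. It reached 32 in mutant and 22 in wildtype (log2 ratio 0.52), and the ratio lay at percentile 98.9 of the ratios of all regions. Its average signal was also higher in mutant, at 12 against 8.53 in wildtype. With common scaling the log2 ratio was 1.57. It was called in both libraries, and its summit was at the same position in each, 69100064. Of the 26 regions it was the only one with a higher peak in mutant. That is 3.85% of them, close to the 3.69% of all regions.

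This region covered the whole second Per1 window printed above, whose start site lies 1196 bp past the listed start, and both summits lay at -88 from that start site. The first window, with the E-box and the D-box, was overlapped by no region, and the nearest one began 715 bp away. The region inside Per1 thus lay over the downstream RefSeq start site and not over the upstream one. The mutant and wildtype intervals each covered all 300 bases of the second window.

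**Figure D2:**
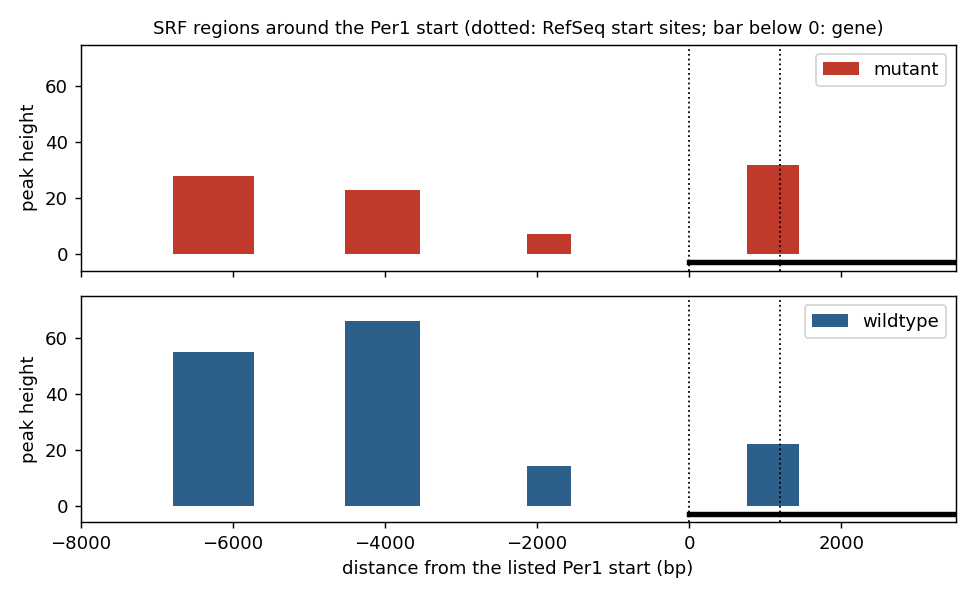
Peak heights (y axis, deposited signal units) of the 4 Per1 regions by distance from the listed Per1 start (x axis, bp), mutant above wildtype; bar widths are the regions, dotted lines the 2 RefSeq start sites and the black line the gene. The region over the downstream start site is the tallest in mutant, at 32, and the 2 upstream regions are the tallest in wildtype, at 55 and 66.

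Per2, a second period repressor, had 2 regions, both assigned to it alone and both called in each library. Over its start (chr1:91458791-91460048, listed at -91) it reached 24 in mutant and 31 in wildtype (log2 ratio -0.36). Inside the gene, 30481 bp past the start (chr1:91428531-91429164), it reached 23 in mutant and 44 in wildtype (log2 ratio -0.91). Both regions were about equal in mutant, whereas in wildtype the one inside the gene was higher. Summits were at the same position in both libraries at each region.

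Per3, the remaining period gene, had 3 regions, all called in wildtype only. The region over its start (chr4:151044382-151044827, listed at 18) reached 10 in mutant and 14 in wildtype (log2 ratio -0.45), and overlapped 212 bases of the Per3 window, which hold 1 of its 2 D-boxes. It is also assigned to Vamp3. Regions 17421 bp and 37489 bp past the start reached 10 and 11 in mutant and 27 and 33 in wildtype, at log2 ratios of -1.35 and -1.50. The last is the lowest ratio among the 26 regions, and that region is also assigned to Uts2. Per3 and Nr1d2 were the 2 genes with regions but no mutant interval.

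Cry1, a cryptochrome gene whose protein represses CLOCK and ARNTL, had 3 regions assigned to it alone. The highest, inside the gene and 1343 bp past its start (chr10:85183277-85184146), reached 21 in mutant and 40 in wildtype and was called in both. The region over the start (chr10:85184739-85185698, listed at -164), which covers the window with the E-box, reached 9 in mutant and 13 in wildtype, the lowest wildtype value of the 26. A region 30732 bp past the start reached 15 in mutant and 34 in wildtype. Signal at Cry1 was thus higher inside the gene than over its start in both libraries, and the log2 ratios were -0.90, -0.49 and -1.13 in the same order.

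Cry2, the other cryptochrome gene, had 4 regions, each also assigned to D930015M05Rik. The highest lay 4123 bp before the start (chr2:92437845-92438539), with 22 in mutant and 52 in wildtype (log2 ratio -1.20), and was the only one called in mutant. Over the start (chr2:92433806-92434593, listed at -130) it reached 10 in mutant and 25 in wildtype (log2 ratio -1.24). Regions 2615 bp and 6012 bp past the start reached 11 each in mutant and 14 and 26 in wildtype. By peak height 3 of the 4 Cry2 regions were at least 2-fold lower in mutant, against 59.0% of all regions. By average signal 0 of them were, against 35.5% of all regions.

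Nr1d1, which encodes the REV-ERB alpha receptor, had 4 regions of nearly even height. At -8313, -318, 1224 and 12393 from its start they reached 16, 15, 17 and 12 in mutant and 20, 19, 20 and 23 in wildtype. The log2 ratios were -0.30, -0.32, -0.22 and -0.88, all above -1.10. Only the region at 1224 (chr11:98773593-98774443), shared with Thra like the one at 12393, was called in mutant, and its average signal was higher in mutant, at 9.07 against 8.00 in wildtype. Nr1d2, which encodes the related REV-ERB beta receptor, had 1 region over its start (chr14:18238099-18239525), with 10 in mutant and 17 in wildtype, called in wildtype only.

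Bhlhe40 encodes a basic helix-loop-helix repressor that binds E-boxes. Its single region (chr6:108661243-108662044) is listed 1014 bp past the start. It is shared with 0610040F04Rik, whose start is nearer, with the region listed at -709 from it. The region reached 40 in mutant and 57 in wildtype (log2 ratio -0.50). This was the highest mutant value of the 26 regions and the second highest wildtype value, at percentile 96.5 of all regions in mutant and 86.6 in wildtype. The region was called in both with summits at the same position, 108661664.

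Dbp, the D-box output factor, had 4 regions, all shared with its neighbours, which were Sphk2 at each and Ntn5, Car11, Rpl18, Fam83e and Spaca4 at some. At -1030 and -231 from the start they reached 8 and 10 in mutant and 19 and 16 in wildtype, and both were called in wildtype only. The regions 9842 bp and 12781 bp past the start reached 22 each in mutant and 25 and 39 in wildtype, and both were called in each library. The farthest is listed at -26 from the start of Sphk2 and -43 from that of Rpl18, a ribosomal protein gene, so the highest wildtype region assigned to Dbp lay over the starts of other genes. Its log2 ratio was -0.80, and that of the region at 9842 was -0.18.

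Over the 26 regions the median log2 ratio was -0.84 (quartiles -1.15 and -0.38), and 18 lay above the median of all regions. At least 2-fold lower in mutant were 8 of 26 (30.8%), against 59.0% of all regions, and 0 were at least 2-fold higher, against 0.414%. The 8 were 3 at Cry2, 2 at Per3 and 1 each at Per1, Cry1 and Dbp. With common scaling, 0 of 26 were at least 2-fold lower, against 9.30% of all regions, and 18 were higher in mutant, against 43.5%. With that scaling 1 of them, the Per1 region at 1099 bp, was at least 2-fold higher, against 4.58%. The direction of the clock gene regions turned with the scaling, and their median stayed above that of all regions, at 0.19 against -0.090. By the average signal, 2 of 26 were higher in mutant, against 4.63%, and 2 were at least 2-fold lower, against 35.5%. Taking the highest region of each gene, 3 of 9 were at least 2-fold lower, against 57.7% of all genes with a region.

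Ratios also differed by position and by CpG islands. Of the clock gene regions, 34.6% lay within 1 kb of the start of any gene, against 22.7% of all regions. At least 2-fold lower in mutant were 1 of these 9, against 39.6% of all regions so placed, and 7 of the 17 farther regions, against 64.8%. Of those 17, 8 were called in both libraries, against 46.7%. Clock gene regions holding a CpG island, 11 of 26, had a median log2 ratio of -0.63, against -0.80 over all regions with an island, and those without one had -0.91, against -1.18 over all regions without one. The part of position, CpG islands and height in the ratios was not tested.

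**Figure D3:**
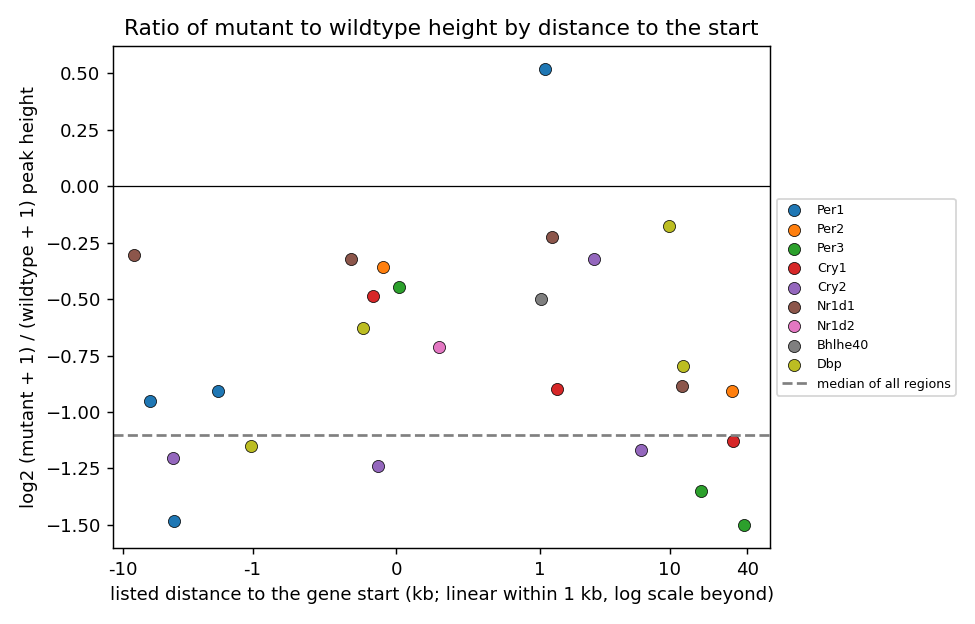
Log2 ratio of mutant to wildtype peak height (1 added to each; y axis) of the 26 regions by listed distance to their clock gene's start (x axis, kb; linear within 1 kb and logarithmic beyond), coloured by gene, with the median of all regions dashed. Only Per1 at 1099 bp lies above 0, the Nr1d1 points all lie above the dashed line, and the lowest is Per3 at 37489 bp with -1.50.

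**Figure D4:**
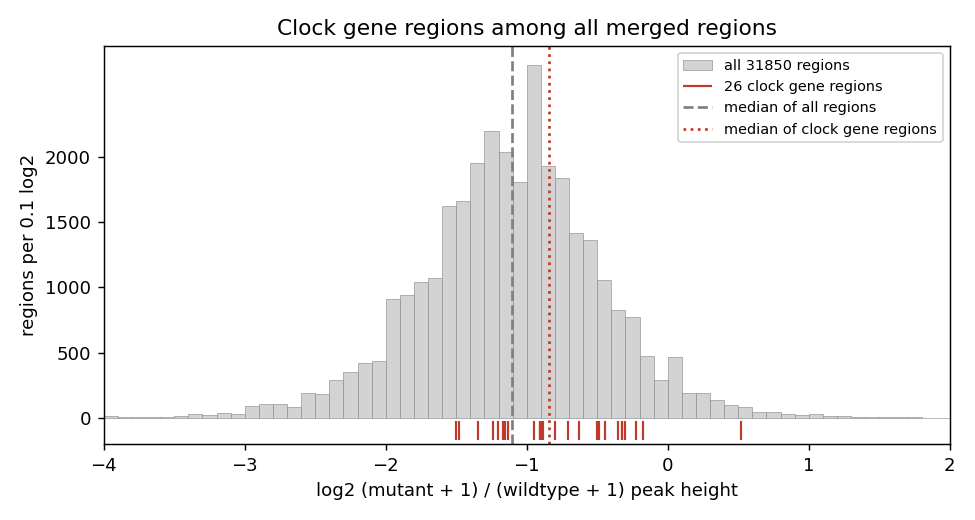
Log2 ratios of all 31850 regions (grey, number per 0.1 log2 on the y axis; 1 added to each height; the few beyond the axis are not drawn) with the 26 clock gene regions as red ticks below 0. The clock gene median of -0.84 (dotted) lies to the right of the median of all regions at -1.10 (dashed), within the grey distribution.

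Interval calls gave another view of the same libraries. Both libraries had a call at 11 of the 26 regions (42.3%), against 48.9% of all regions, 15 were called in wildtype only, against 49.0%, and 0 in mutant only, against 2.10%. Of the 11 called in both, 2 were at least 2-fold lower by peak height, against 48.2% of all regions called in both. Among the 11, summits were at the same position in 6 and at most 32 bp apart in the others. The 15 regions called in wildtype only still had mutant heights of 7 to 16. By gene, 7 of 10 had a mutant interval, against 49.6% of protein-coding RefSeq genes, and 9 of 10 a wildtype interval, against 65.5%. Any assigned region counts here, and Dbp is among the 7 only through regions listed downstream of it. Of the 9 genes with a region, 7 had a mutant interval, against 73.8% of all genes with a region. These shares were not adjusted for gene length.

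A region centred within 1 kb of the gene's own start was present for 7 of the 9 genes, against 48.3% of all genes with a region. Per1 and Bhlhe40 lay just outside that distance, at 1099 and 1014 bp. These 7 start regions had median heights of 10 in mutant and 17 in wildtype, and only that of Per2 was called in mutant. Over all regions within 1 kb of the start of any gene the medians were 14 in mutant and 23 in wildtype. Heights of the 7 ran from 9 to 24 in mutant and from 13 to 31 in wildtype, with Per2 the highest in both. Of the 9 clock gene regions within 1 kb of the start of any gene, 3 were called in both libraries, against 56.5% of all regions so placed. The 19 regions farther out reached 40 in mutant and 66 in wildtype. In the RefSeq windows, 7 of 11 were overlapped by a wildtype interval, against 22.2% of all windows, and 1, the second Per1 window, by a mutant interval, against 14.4%. The 3 Clock windows had none, and the nearest region to them lay 108903 bp away.

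As means over all regions of a gene in the deposited gene table, Bhlhe40 was at 40 in mutant and 57 in wildtype, Per2 at 23.5 in mutant and 37.5 in wildtype, and Per1 at 22.5 in mutant and 39.25 in wildtype. Nr1d2 was lowest, at 10 in mutant and 17 in wildtype, and Per3 was next in mutant, at 10.33, with 24.67 in wildtype. The remaining means were between 13.5 and 15.5 in mutant and between 20.5 and 29.25 in wildtype, close together without a replicate spread to order them. Over all 16697 genes the medians were 15 in mutant and 31 in wildtype.

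Other clock genes were read from a list of 18 further components, chosen with earlier results of these data known. Regions were assigned to 16 of them, all but Bhlhe41 and Fbxl21, and 13 of the 16 had a mutant interval and 15 a wildtype interval, against 73.8% and 99.0% of all genes with a region. Their 57 regions had a median log2 ratio of -1.14, and 35 of 57 were at least 2-fold lower in mutant (61.4%), against 59.0% of all regions and 30.8% of the 26. This difference between the lists has no test. Rora alone held 14 of the 57 regions and 11 of the 35. Farther than 1 kb from the start of any gene were 75.4% of the 57 regions, against 65.4% of the 26. Arntl, the partner of CLOCK, reached 31 in mutant and 79 in wildtype at its highest region, 43405 bp past the start, and 16 in mutant and 40 in wildtype over the start at -134. Npas2, which can take the place of CLOCK, reached 24 in mutant and 62 in wildtype, 146584 bp past its start.

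Among output factors, Tef, a relative of Dbp, held the highest region of the list, with 35 in mutant and 111 in wildtype (log2 ratio -1.64). This region lay 28909 bp past its start and is listed as downstream of the gene. Gsk3b, a kinase that modifies clock proteins, reached 28 in mutant and 104 in wildtype over its start, in a region shared with BC031361. Usp2, a deubiquitinase, reached 32 in mutant and 62 in wildtype over its start. All 3 were above the median of all regions in both libraries. The wildtype heights of Tef and Gsk3b exceeded those of all 26 regions above, as did the 79 of Arntl.

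At the starts of the remaining genes of the list with a region within 1 kb, wildtype heights were below those of Gsk3b and Usp2, at 34 or less. Timeless reached 30 in mutant and 34 in wildtype there, and Hlf, another relative of Dbp, 16 in mutant and 26 in wildtype. Btrc, a ubiquitin ligase subunit, reached 12 in mutant and 29 in wildtype. Rora, a nuclear receptor gene, reached 7 and 5 in mutant and 15 and 18 in wildtype, Noct 12 in mutant and 13 in wildtype, and Ciart 11 in mutant and 14 in wildtype. Csnk1d, a kinase of PER proteins, had 14 in mutant and 9 in wildtype, and Nfil3, a D-box repressor, 11 in mutant and 10 in wildtype, both called in mutant only.

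**Figure D5:**
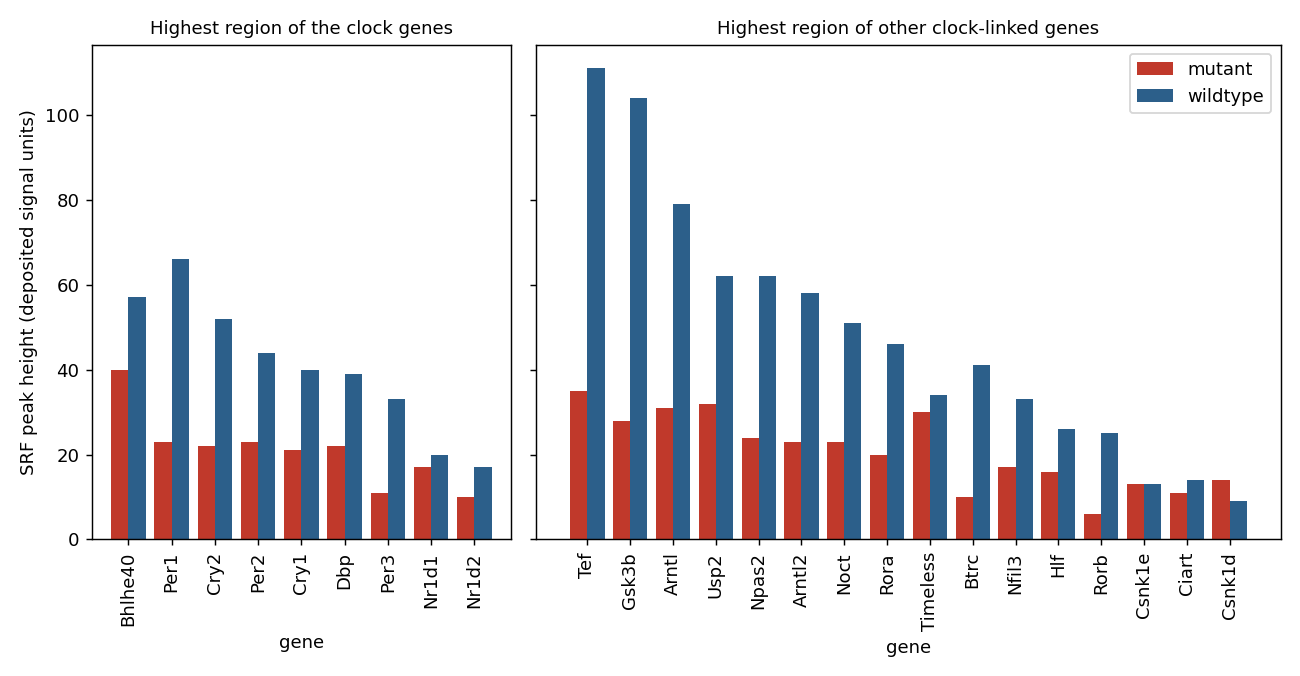
SRF peak heights (y axis, deposited signal units) of the region with the highest mean height of each gene, mutant in red left of wildtype in blue, for 9 clock genes (left) and 16 other clock-linked genes (right), ordered by mean height; each bar is 1 library. Bhlhe40 leads the left panel with 40 in mutant and 57 in wildtype, and Tef the right with 35 in mutant and 111 in wildtype.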

How the data were processed

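SRF libraries of whole cornea from mutant and wildtype mice were compared, 1 library each, grouped by title. The submitters' processing notes name BWA and the build mm10. Which interval caller, threshold and scaling were used is not stated there. Deposited, per the file headers, were signal values of called intervals and merged regions (peak and average) and their means by gene. Gene assignments and distances, measured to the region centre, are the authors'. Coordinates are as listed.

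Regions were matched to genes by whole symbols, with Gm129 and Ccrn4l read as Ciart and Noct. The log2 ratio divides mutant by wildtype peak height after 1 is added to both, so low regions show smaller ratios than their heights would give. A region counted as lower at 2-fold. Named genes were all 10 genes, and of the list of 18 the 5 with the highest region and those with a region within 1 kb of the start. Some genes of the list as first drawn up are not reported here. Members and lists were chosen with earlier results of these data known. Python 3.11.15, numpy 2.4.6, pandas 2.3.3 and matplotlib 3.10.9 were used.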

Additional observations from a re-analysis of the deposited data

How the results depend on the processing

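No paired analysis was possible because there was 1 library for each genotype. Of the 26 regions, 8 were at least 2-fold lower in mutant and 1 was higher. The average value gave 2 lower, against 35.5% of all regions, and 2 higher, and a pseudocount of 5 gave 5 lower, against 45.3%. The 2 lower by the average were 1 at Per1 and 1 at Per3. Common scaling gave 0 lower, 18 higher and a median log2 ratio of 0.19, beside -0.090 for all regions. That scaling raises the median of all regions by 1.01, and the sign of the clock gene median turned with it. Fewer regions entered in the other settings. Those reaching a height of 28 gave 4 of 11 lower, against 68.6% of all such regions, and those called in both 2 of 11, against 48.2%. The highest region of each gene gave 3 of 9 lower, against 57.7%, and 0 higher. Regions not shared with other genes gave 2 of 9 lower, against 58.9%, and 0 higher. Those within 1 kb of the own start, a setting chosen after seeing the data, gave 1 of 7 lower and 0 higher. The nearest share over all regions is 39.6% lower, for regions within 1 kb of the start of any gene, which is a wider rule. The median kept its sign in all of these except common scaling, and ranged from -0.91 to -0.49 apart from it. A negative sign says little here, since the mutant height was the lower one at 95.4% of all regions. By the average value the median was -0.57, against -0.83 over all regions. With a pseudocount of 5 it was -0.68, against -0.93 over all regions. With intervals of height 24 or more, 3 of the 9 genes with a region had a mutant interval in place of 7, against 35.6% of all genes with a region, and 7 a wildtype one in place of 9, against 77.1%. Calls in both stayed at 11 with 50% reciprocal overlap. What depth limits cannot be given, as read totals were not used here.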

Other observations

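A CArG box with at most 1 mismatch, a search added after the exact search had been seen, was found in 3 of the 11 clock gene windows and in 21.1% of all windows. The 3 were the second Per1 window, at -238 from the start site, the Nr1d1 window, at -214, and the Dbp window, at 22. SRF heights of the regions over them were 32 in mutant and 22 in wildtype at Per1, 15 in mutant and 19 in wildtype at Nr1d1, and 10 in mutant and 16 in wildtype at Dbp.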
